A study of Mus musculus with 115 samples.

Results

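Complexes II, III and IV of the mitochondrial respiratory chain and the ATP synthase (complex V) are described here through their nuclear transcripts in mouse hearts that lacked Ant1. The members were all amplicons whose gene symbol begins with Sdha, Sdhb, Sdhc, Sdhd, Uqcr, Atp5, or Cox followed by a digit. Cyc1, Cycs and Surf1 were also in the rule, but no amplicon carried the symbol Cycs. None carried Atp5f1, Atp5g1, Atp5g2, Atp5h or Atp5l either, so complex V values cover only part of its nuclear subunits. The rule goes by name and not by value, although the members were chosen with earlier results of these data known. The rule found 53 of the 23930 amplicons of the panel: 8 of complex II (4 subunits and 4 assembly genes), 9 subunits of complex III, 23 of complex IV (16 subunits and 7 assembly genes) and 13 of complex V (10 subunits and 3 others). Of these, 51 passed the filter on low counts and were tested. Cox7b2 and Cox8c did not pass it, with group means near 0.01 to 0.02 CPM (read counts scaled to a common library total) in the control vector knockout and wild type hearts.

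Complex II (succinate dehydrogenase) passes electrons from succinate to ubiquinone, complex III passes them on to cytochrome c, and complex IV (cytochrome c oxidase) passes them to oxygen. Complexes III and IV pump protons, and complex V uses the proton gradient to make ATP, which Ant1 (the product of Slc25a4) exchanges for ADP across the inner membrane of heart mitochondria. Subunits form the finished enzymes, whereas assembly factors insert heme, copper, flavin or iron-sulfur cofactors, or hold intermediates, and are not part of the finished enzyme.

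The bulk libraries came from heart tissue of C57BL/6JEiJ mice that had received 2.5e+11 vg of virus into the pericardium. The groups were Ant1-/- ND6P25L with AAV2/9Des-Gfp-mAnt1 (3 hearts), Ant1-/- ND6P25L with the control virus AAV2/9Des-Gfp (3 hearts), Ant1-/- with the Ant1 vector (4 hearts), Ant1-/- with the control vector (3 hearts), wild type with the Ant1 vector (3 hearts) and wild type with the control vector (4 hearts). The knockout ND6 mice carry a mitochondrial ND6 variant (a complex I subunit) besides the Ant1 knockout, and every mouse, controls included, received a virus that encodes Gfp. Hearts 61 and 91, of the knockout ND6 genotype, are labelled as control vector but carry the Ant1 vector's title code, and were kept as a group of their own. The collection times in the series text were 1, 3, 6, 9 and 12 months after infection, but no label ties a heart to a month. Separate mice are not stated in the labels either, so p values of the fits on summed hearts measure the spread between these hearts.

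The 22 hearts held 16827518 to 54779297 counts each. Slc25a4 lay between 0.331 and 2.03 CPM in the control vector knockout hearts, against 8464 to 11380 CPM in the control vector wild type hearts. It reached 174 to 241 CPM in the Ant1 vector knockout hearts. Knockout ND6 heart 8, labelled Ant1 vector, held 0.732 CPM, close to the control vector hearts, whereas hearts 61 and 91 held 169 and 151 CPM. The other Ant1 vector knockout ND6 hearts, 37 and 5, held 55.6 and 66.7 CPM. Ant1 vector wild type hearts held 8968 to 10260 CPM, within the range of the control vector wild type hearts. The summed CPM of the 8 cardiomyocyte markers was 74090 to 77740 in control vector knockout hearts and 66440 to 78370 in control vector wild type hearts. In bulk heart RNA, fewer cells of a type and less RNA per cell cannot be told apart. Levels are not compared between genes, since the efficiency of each amplicon is unknown.

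In the control vector knockout hearts 5 of the 11 assembly genes, 3 of complex IV and 2 of complex II, rose over the control vector wild type hearts, while 36 of 37 tested subunits did not pass the test. With an adjusted p below 0.05 (edgeR quasi-likelihood test, adjusted over 15403 genes), 7 of the 51 members rose: Cox19, Cox10, Cox11, Sdhaf2, Sdhaf4, Cox6a1 and Atp5sl. That is 5 of 11 assembly genes, 1 of 37 subunits and 1 of 3 others, where 8.19% of all tested genes rose. None of the 51 fell by edgeR or by DESeq2, where 6.23% of all tested genes fell, and the 12 members with an unadjusted p below 0.05 in edgeR all had positive changes. A fit of single libraries with the library table as a covariate called Cox6a2 lower. That fit treats the libraries of a heart as repeats linked by a shared correlation. Its p values therefore also rest on the spread between libraries, and its calls are not on a par with those over hearts. The median log2 change was 0.34 for the 11 assembly genes, 0.11 for the 37 subunits and -0.03 for all tested genes. The difference between assembly genes and subunits was not tested. In this comparison 13 of 51 members, and 26.7% of all tested genes, had no overlap between the groups.

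Of these hearts, knockout heart 35 and wild type hearts 23, 24 and 25 shared tables, and the others lay in other tables. Within the shared tables, the log2 difference of knockout heart 35 from the mean of wild type hearts 23, 24 and 25 was positive for 31 of 51 members, with a median of 0.04, against 40 of 51 and 0.13 in edgeR over all hearts. With the table as a covariate it was positive for 35 of 51 members, with a median of 0.07. The 7 members that rose were positive in both, with medians of 0.31 within shared tables, 0.38 with the covariate and 0.45 in edgeR. These 7 were picked for their rise in the same hearts, so their sign here is no independent support for the calls. The 37 subunits had medians of 0.01 within shared tables and 0.03 with the covariate.

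The upstream sequences of 4 of the 7 genes that rose are shown, because they set the gene with the largest rise beside members that hold motifs found often among respiratory chain promoters. Each is the 250 bases before the RefSeq start in GRCm38.p6, 5′ to 3′ on the gene's strand. Capitals mark matches, on either strand, to TGCGCA (part of the sites bound by NRF1) or CCGGAAG (a core of sites bound by ETS factors such as GABP). The windows are chr5:139345167-139345416 (Cox19), chr11:64079473-64079722 (Cox10), chr5:115348959-115349208 (Cox6a1) and chr19:10525210-10525459 (Sdhaf2), all on the minus strand.
Cox19: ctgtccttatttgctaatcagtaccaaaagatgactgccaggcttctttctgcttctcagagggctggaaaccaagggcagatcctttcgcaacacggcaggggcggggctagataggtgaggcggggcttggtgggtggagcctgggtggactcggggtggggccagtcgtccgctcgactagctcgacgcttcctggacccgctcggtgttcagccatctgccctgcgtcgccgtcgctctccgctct
Cox10: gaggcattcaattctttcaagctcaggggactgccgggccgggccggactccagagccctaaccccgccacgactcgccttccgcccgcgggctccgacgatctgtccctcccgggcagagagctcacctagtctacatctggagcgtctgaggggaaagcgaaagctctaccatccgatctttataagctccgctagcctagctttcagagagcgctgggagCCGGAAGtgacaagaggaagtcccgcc
Cox6a1: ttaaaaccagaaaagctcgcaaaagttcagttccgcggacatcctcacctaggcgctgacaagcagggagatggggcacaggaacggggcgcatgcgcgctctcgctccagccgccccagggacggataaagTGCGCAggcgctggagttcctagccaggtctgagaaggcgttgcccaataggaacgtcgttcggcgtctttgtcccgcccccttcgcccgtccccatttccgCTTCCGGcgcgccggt
Sdhaf2: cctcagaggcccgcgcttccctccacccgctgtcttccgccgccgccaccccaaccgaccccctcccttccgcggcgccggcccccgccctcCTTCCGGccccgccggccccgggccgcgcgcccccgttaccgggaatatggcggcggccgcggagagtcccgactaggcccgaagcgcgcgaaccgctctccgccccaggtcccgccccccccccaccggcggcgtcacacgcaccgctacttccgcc

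The Cox19 window held neither motif, while the Cox6a1 window held both. Over the RefSeq windows of 300 bases (250 before and 50 after the start), which exist for 40 of the 53 members as 44 windows, TGCGCA was present in 15.9% of member windows and 7.76% of all 32851 windows. CCGGAAG was present in 38.6% of member windows and 8.86% of all windows. Cox11 and Atp5sl, which also rose, held neither motif, and Sdhaf4 held TGCGCA. A match is a run of letters and not a measured binding site, and its absence says nothing about the factor.

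Cox19 encodes a small intermembrane-space protein that is needed for complex IV, known from yeast and human cells for a role in copper handling. It had 113.4, 129.2 and 136.4 CPM in the control vector knockout hearts, against 62.74, 68.68, 61.29 and 64.79 CPM in the control vector wild type hearts. The lowest knockout heart exceeded the highest wild type heart, and 26.7% of all tested genes had no overlap in either direction. The change was 1.96-fold (log2 0.97 ± 0.12 SE, adjusted p = 8.34e-06, 95% interval 1.66-fold to 2.32-fold). The gene lies at chr5:139337822-139345166 (GRCm38.p6), on another chromosome than Slc25a4 on chromosome 8, and overlaps no RefSeq neighbour.

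Cox19 was also the member that passed in each of the 4 comparisons of a knockout genotype with wild type. In control vector knockout ND6 hearts it had 102.6, 109.9 and 127.8 CPM, a 1.76-fold rise over the control vector wild type hearts (adjusted p = 8.10e-05 in edgeR). With the Ant1 vector, the knockout hearts had 112.6, 119, 113 and 75.84 CPM and the wild type hearts 74.2, 75.8 and 69.45 CPM, a 1.44-fold rise (adjusted p = 0.00765 in edgeR). The Ant1 vector knockout ND6 hearts had 114.6, 113.9 and 116.5 CPM, a 1.57-fold rise over the same wild type hearts (adjusted p = 0.00115 in edgeR). These 4 comparisons share wild type groups in pairs. Across all vectors, the 15 hearts of both knockout genotypes spanned 75.84 to 136.4 CPM and the 7 wild type hearts 61.29 to 75.8 CPM. Cox19 was the only one of 51 members without overlap between those sets, where 3.51% of all tested genes had none.

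The gap between the sets is narrow because of Ant1 vector knockout heart 27, whose other group members lay between 112.6 and 119 CPM. The libraries of heart 27 averaged 84.06 and 60.49 CPM in its 2 tables, and it shares no table with a wild type heart. Where genotypes do share tables, the order was the same. Knockout heart 35 exceeded the mean of wild type hearts 23, 24 and 25 by a log2 difference of 0.82. In tables shared with wild type heart 70 (64.79 CPM), knockout ND6 heart 22 had 127.8 CPM and hearts 61 and 91 had 125.4 and 109.7 CPM. Knockout heart 20, in the tables of the 3 Ant1 vector wild type hearts, had 112.6 CPM. Cox19 was past the threshold in all 58 refits of its 4 comparisons under other settings, with log2 changes from 0.46 to 1.04.

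**Figure D1:**
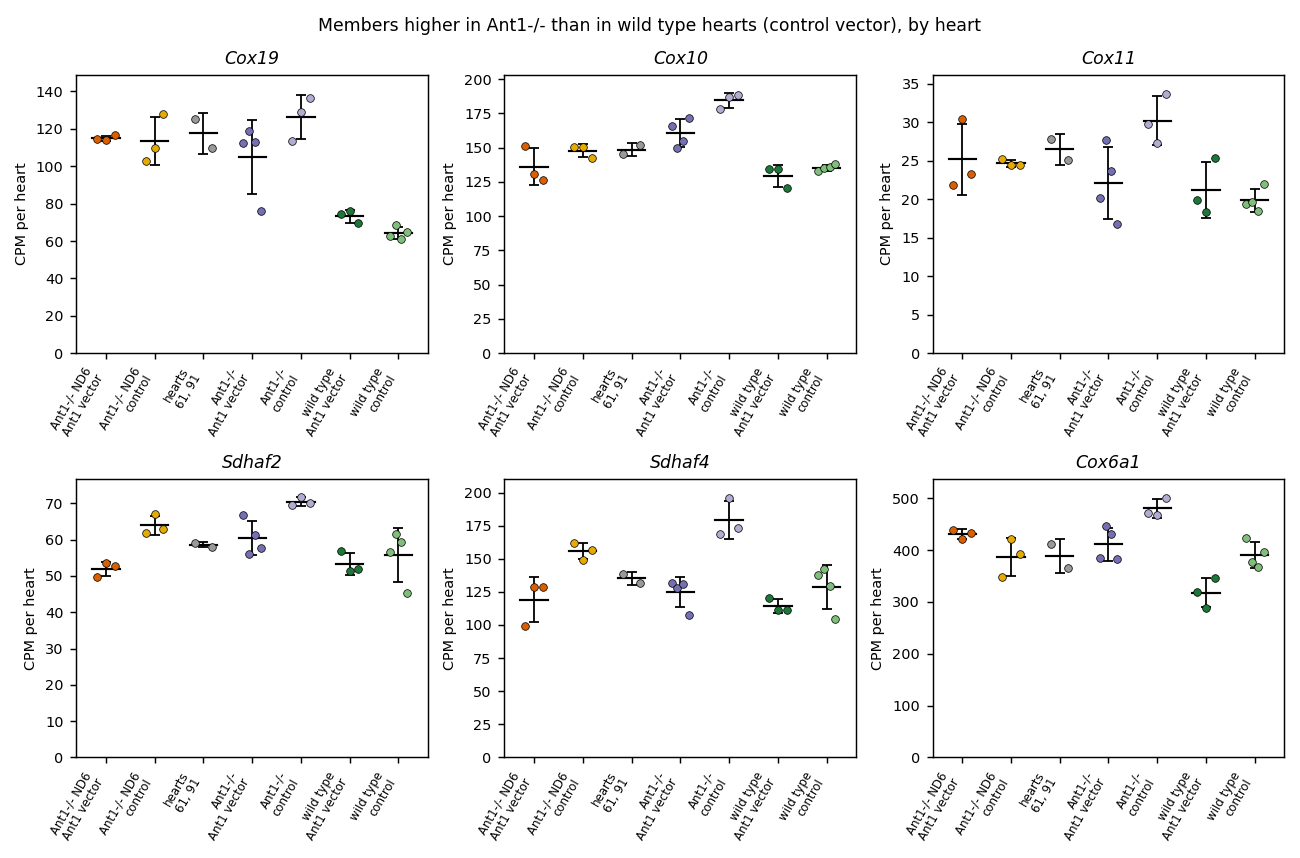
CPM of 6 members in each of the 22 hearts, by genotype and vector. Points are hearts, horizontal lines are means and error bars are SD, and hearts 61 and 91 stand apart because label and title code differ. Cox19 lies at 75.84 CPM or more in every knockout or knockout ND6 heart and at 75.8 CPM or less in every wild type heart.

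The other complex IV assembly genes did not all move with Cox19. Cox10, the farnesyltransferase that makes heme O, had 178.1, 186.9 and 188.6 CPM in control vector knockout hearts, against 132.8, 134.9, 135.6 and 138.1 CPM in control vector wild type hearts. The groups did not overlap, as in 26.7% of all tested genes, and the change was 1.36-fold (adjusted p = 0.000319 in edgeR). Cox11, which delivers copper to Cox1, had 29.71, 27.29 and 33.62 CPM in control vector knockout hearts, against 19.35, 19.57, 18.4 and 22 CPM in control vector wild type hearts, a 1.52-fold rise without overlap (adjusted p = 0.00634 in edgeR). Cox14, Cox15, Cox18 and Surf1, which act on Cox1 translation, heme A synthesis, Cox2 export and early assembly, had log2 changes of 0.19, 0.10, 0.19 and 0.00 and did not pass the test. Within shared tables the Cox18 and Surf1 differences were -0.24 and -0.17. Cox10 overlaps RefSeq long noncoding RNA genes and Cox11 overlaps Tom1l1. The tables give neither amplicon positions nor strand, so reads of overlapping genes may be counted together.

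Of the 4 complex II assembly genes, 2 rose. Sdhaf4, which acts on the flavin-bearing Sdha on its way to Sdhb, had 168.8, 195.5 and 173.5 CPM in control vector knockout hearts, against 137.6, 142.2, 129.4 and 104.9 CPM in control vector wild type hearts. Its change was 1.39-fold (adjusted p = 0.00396 in edgeR). Sdhaf2, needed for flavin attachment to Sdha, rose 1.26-fold, with 69.51, 71.77 and 70.21 CPM in control vector knockout hearts and 56.72, 61.69, 59.49 and 45.23 CPM in control vector wild type hearts (adjusted p = 0.0132 in edgeR). For both genes the groups did not overlap, as in 26.7% of all tested genes. Sdhaf1 and Sdhaf3, which help to place iron-sulfur clusters in Sdhb, had log2 changes of 0.11 and 0.42 and did not pass, at an adjusted p of 0.0594 for Sdhaf3 in edgeR. Sdhd, a membrane anchor, had the highest change of the 4 complex II subunits (log2 0.22, adjusted p = 0.0564 in edgeR). DESeq2 also called Sdhd and Sdhaf3 higher.

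For 36 of the 37 tested subunits the 95% interval of the change in control vector knockout against wild type hearts lay within 1.5-fold of no change. Their log2 changes ran between -0.18 (Cox6a2) and 0.32 (Uqcrc2). The catalytic subunit Sdha averaged 1075 ± 38.0 CPM in control vector knockout hearts (SD, n = 3) and 1177 ± 41.0 CPM in wild type hearts (SD, n = 4). The ATP synthase beta subunit Atp5b averaged 6012 ± 517 CPM in control vector knockout hearts (SD, n = 3) and 5888 ± 574 CPM in wild type hearts (SD, n = 4). Cox4i1, the regulatory complex IV subunit, averaged 2120 ± 141 CPM in control vector knockout hearts (SD, n = 3) and 1958 ± 184 CPM in wild type hearts (SD, n = 4). None of these 3 passed the test, and their 95% intervals ran between 0.834-fold and 1.00-fold, 0.909-fold and 1.15-fold, and 0.967-fold and 1.21-fold in that order.

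All 9 subunits of complex III had positive log2 changes in control vector knockout against wild type hearts, between 0.06 (Uqcr11) and 0.32 (Uqcrc2), and none passed the test in edgeR or DESeq2. Only Uqcrc2 had an unadjusted p below 0.05, and it passed the adjusted threshold with the second of the 3 table sets alone. Of the differences within shared tables, 8 of 9 were positive with a median of 0.04 (0.15 in edgeR) and Uqcr11 was at -0.22, and with the table as a covariate 8 of 9 were positive with a median of 0.09. The core protein Uqcrc1 averaged 2557 ± 68.4 CPM in control vector knockout hearts (SD, n = 3) and 2335 ± 116 CPM in wild type hearts (SD, n = 4). Cyc1, which carries heme, averaged 1750 ± 74.5 CPM in control vector knockout hearts (SD, n = 3) and 1571 ± 137 CPM in wild type hearts (SD, n = 4). The Rieske iron-sulfur protein Uqcrfs1 had a log2 change of 0.20. The 10 complex V subunits had log2 changes between -0.11 (Atp5j) and 0.23 (Atp5d), with a median of 0.06, and the 14 tested complex IV subunits a median of 0.08. Wild type heart 70, in other tables than the other 3 control vector wild type hearts, held the lowest sum over all 37 subunits in its group (61051 CPM, against 65887 to 78319 CPM in those 3). The values within shared tables leave out that heart and also knockout hearts 36 and 38. Those 2 knockout hearts had sums of 78528 and 73790 CPM, against 70649 CPM in knockout heart 35. Within shared tables, 4 of the 10 complex V subunits and 6 of the 14 complex IV subunits had positive differences, against 7 and 9 in edgeR over all hearts. Cox5a and Cox5b had log2 changes of 0.23 and 0.20 in edgeR and differences of -0.04 and -0.09 within shared tables.

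**Figure D2:**
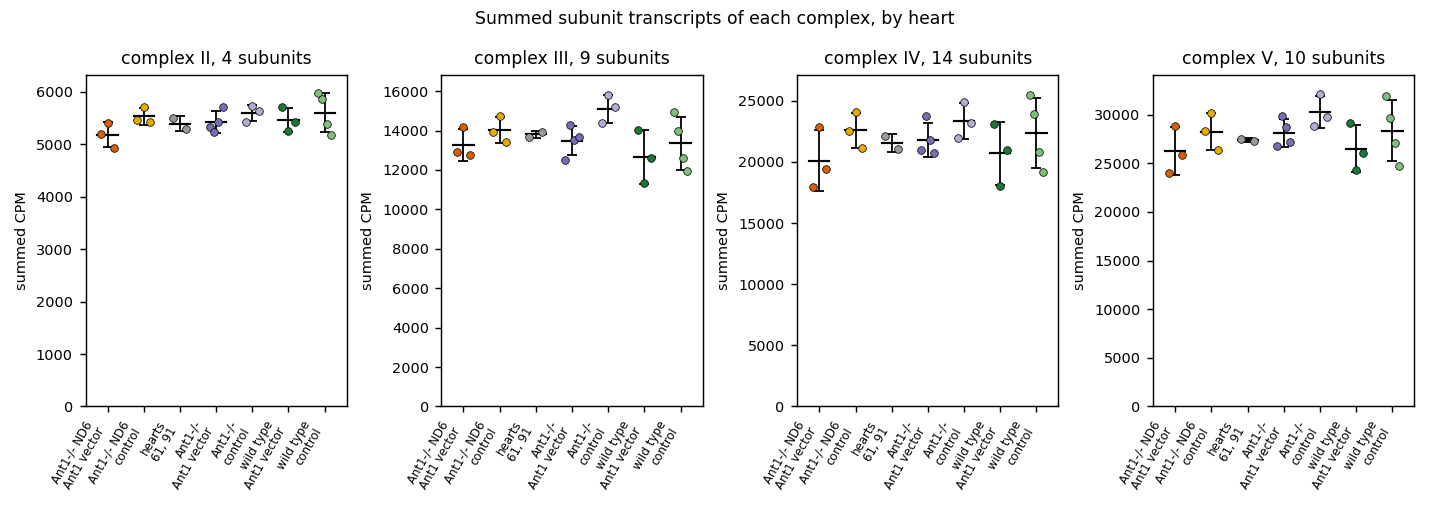
Summed CPM of the tested subunits of complexes II, III, IV and V in each heart. Points are hearts, lines are means and error bars are SD. Complex III sums were 14376 to 15780 CPM in control vector knockout hearts and 11958 to 14929 CPM in control vector wild type hearts, so the groups overlapped, as they did for the other 3 complexes.

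The subunit that rose was Cox6a1, the isoform of subunit VIa found in most tissues, whose heart and muscle counterpart is Cox6a2. Cox6a1 had 471.3, 468.5 and 501.3 CPM in control vector knockout hearts, against 423.5, 377.2, 367 and 397.3 CPM in control vector wild type hearts. The groups did not overlap, as in 26.7% of all tested genes, and the change was 1.23-fold (adjusted p = 0.019 in edgeR). It missed the threshold without low-count filtering (0.0524) and with 1 of the 3 table sets alone (0.0627). It also missed it without knockout heart 38 (0.0921) and without wild type heart 25 (0.0561). Cox6a2 averaged 4011 ± 161 CPM in control vector knockout hearts (SD, n = 3) and 4535 ± 849 CPM in wild type hearts (SD, n = 4), without passing the test. The Cox6a1 amplicon count was 12.0% ± 0.475 of that of Cox6a2 in control vector knockout hearts (SD, n = 3) and 8.79% ± 1.23 in control vector wild type hearts (SD, n = 4). Those ratios did not overlap, but neither did Cox6a1 itself, so the ratio gives no separate support. In control vector knockout ND6 hearts it ran between 8.01% and 11.03%, overlapping the 7.43% to 10.16% of control vector wild type hearts.

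Other isoform pairs showed no such separation between control vector knockout and wild type hearts. Cox7a2, the liver-type isoform, had a log2 change of -0.08 and Cox7a1, the heart-type isoform, one of -0.07. Cox4i2 averaged 19.9 ± 1.31 CPM in control vector knockout hearts (SD, n = 3) and 19.2 ± 1.87 CPM in wild type hearts (SD, n = 4). Cox8b, the heart isoform of subunit VIII, and Cox7b had log2 changes of 0.13 and 0.03. Cox6b2 and Cox8a, at about 8 to 13 CPM in both groups, were not called.

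Atp5sl, also named Dmac2 and known in human cells for the assembly of complex I rather than complex V, had 59.05, 64.33 and 61.85 CPM in control vector knockout hearts, against 51.54, 48.48, 47.59 and 48.05 CPM in control vector wild type hearts. The change was 1.26-fold (adjusted p = 0.00551 in edgeR), without overlap, as in 26.7% of all tested genes. Atp5s, or Dmac2l, had a log2 change of 0.23 and did not pass. The pseudogene amplicon Atp5c1-ps averaged 1.87 ± 0.437 CPM in control vector knockout hearts (SD, n = 3) and 1.41 ± 0.539 CPM in wild type hearts (SD, n = 4), and may share reads with Atp5c1.

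**Figure D3:**
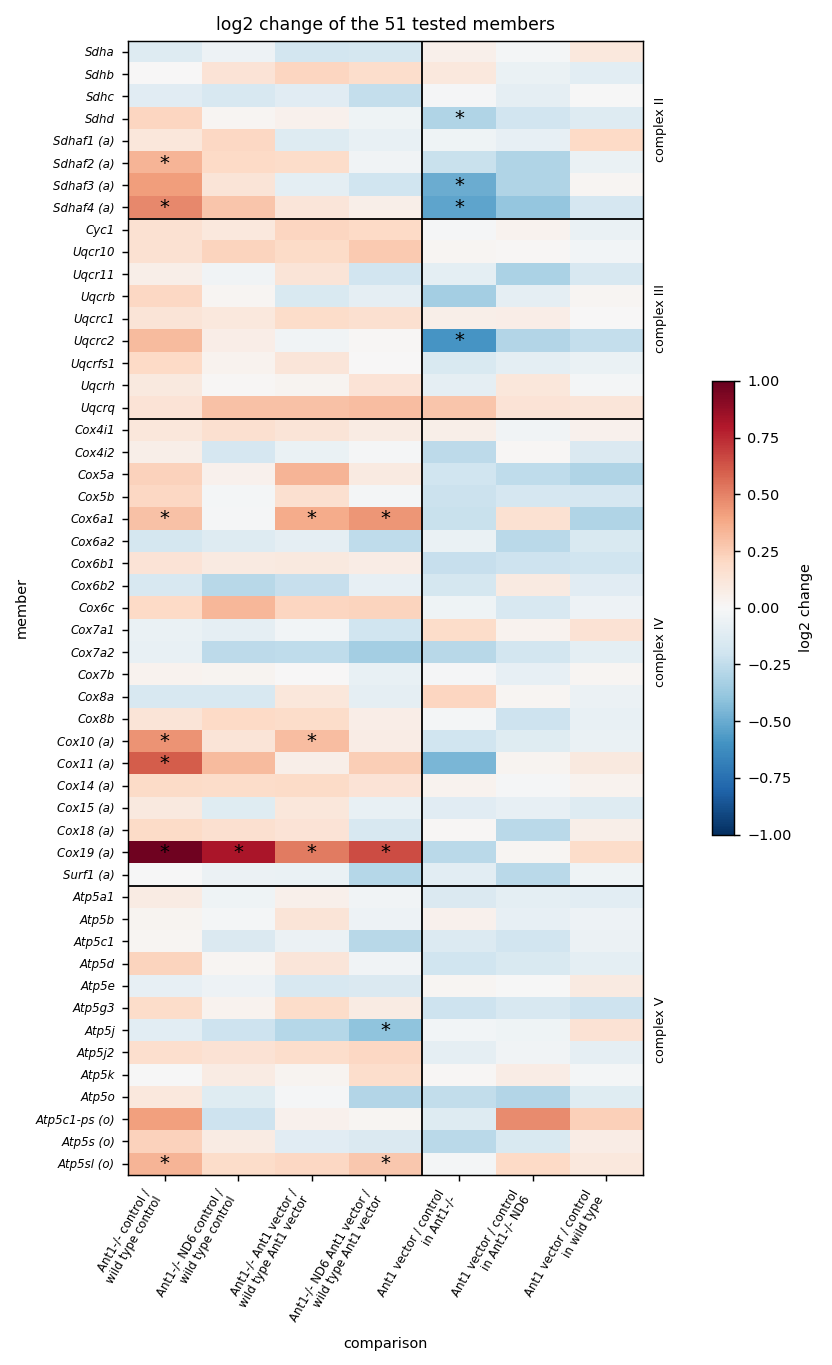
Log2 change of the 51 tested members in 7 comparisons, ordered by complex with assembly genes marked (a) and others (o). Colour runs between -1 and 1, the horizontal lines part the complexes, the vertical line parts genotype from vector comparisons, and asterisks mark an adjusted p below 0.05 (edgeR). Cox19 is marked in all 4 genotype columns, and the vector columns hold 4 marks, all in knockout hearts.

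Partners and assembly factors, mainly of complexes III, IV and V, outside the naming rule were read from a list of 35 genes. Of these, 29 were on the panel and tested. The list also named Foxred1 and Cyb5r3, and Ndufa4, which has a complex I subunit symbol too. In control vector knockout against wild type hearts 10 of the 29 rose, where 8.19% of all tested genes rose, with a median log2 change of 0.27. This list and those below were chosen with earlier results of these data known, so counts over them give no independent support. Coa5, a complex IV assembly factor, rose 1.65-fold (adjusted p = 2.47e-06 in edgeR). Taco1, which activates translation of Cox1, rose 1.38-fold (adjusted p = 0.000806 in edgeR), and Bcs1l, which places the Rieske protein in complex III, rose 1.30-fold (adjusted p = 0.00152 in edgeR). Of 33 genes with complex I subunit symbols 3 rose, a share near that of all tested genes, with a median log2 change of 0.19. Of 18 tested regulators 4 rose, among them the nuclear receptor Esrrg (1.35-fold), the mitochondrial RNA polymerase Polrmt (1.56-fold) and Hif1a (1.32-fold). Fibroblast markers did not all move together: 3 of 7 fell, where 6.23% of all tested genes fell, and none rose. Their summed level was 1225 to 1538 CPM in control vector knockout hearts, against 1677 to 1738 CPM in control vector wild type hearts. Dcn made up most of that sum, at 761.2 to 1004 CPM and 1042 to 1178 CPM in that order. Col3a1 had 53.63, 51.04 and 62.71 CPM in those knockout hearts, against 36.09, 38.31, 41.15 and 63.58 CPM in those wild type hearts. Of the 2 brown fat markers, Ucp1 had 0.0327 to 1.22 CPM in control vector knockout hearts and 6.55 to 35.1 CPM in control vector wild type hearts. The other, Cidea, had 37.26, 37.62 and 38.64 CPM in those knockout hearts, against 29.33, 28.94, 43.42 and 36.29 CPM in those wild type hearts. The part of the fibroblast and brown fat markers in the member changes was not tested.

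In control vector knockout ND6 against wild type hearts Cox19 was the 1 member that rose, where 6.71% of all tested genes rose. None fell by edgeR or DESeq2, where 5.97% of all tested genes fell, and 9 members had an unadjusted p below 0.05 in edgeR. Sdhaf4 had a log2 change of 0.28 (adjusted p = 0.0918 in edgeR) and Cox11 one of 0.32 (adjusted p = 0.161 in edgeR). The table-covariate fit, on single libraries and in place of 1 member, called 7 higher, Cox19, Cox14, Cox4i1, Cox6c, Sdhaf1, Sdhaf2 and Sdhaf4.

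The direct comparison of knockout ND6 with knockout hearts, both with the control vector, called no member by edgeR, where 0.539% of all tested genes rose and 0.519% fell. There, 4 members had an unadjusted p below 0.05, and DESeq2 called Cox6a1 and Cox10 lower. Cox10 had 150.5, 150.8 and 142.2 CPM in control vector knockout ND6 hearts, against 178.1, 186.9 and 188.6 CPM in control vector knockout hearts, without overlap, as in 25.3% of all tested genes (log2 change -0.32, adjusted p = 0.0532 in edgeR). Cox6a1 had 348.6, 421 and 392.9 CPM in control vector knockout ND6 hearts, against 471.3, 468.5 and 501.3 CPM in control vector knockout hearts (log2 change -0.31, adjusted p = 0.0914 in edgeR). The table-covariate fit called the same 2 genes lower.

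Among knockout hearts, those with the Ant1 vector had lower Uqcrc2, Sdhd, Sdhaf3 and Sdhaf4 than those with the control vector. These 4 of 51 members fell, where 3.27% of all tested genes fell, and none rose by edgeR or DESeq2, where 2.19% of all tested genes rose. In edgeR 14 members had an unadjusted p below 0.05. Uqcrc2, a core protein of complex III, had 2043, 2377, 2160 and 2318 CPM in Ant1 vector knockout hearts, against 3209, 3421 and 3400 CPM in control vector knockout hearts. The groups did not overlap, as in 18.2% of all tested genes, and the level with the Ant1 vector was 0.665-fold that with the control vector (adjusted p = 0.00831 in edgeR). Control vector knockout ND6 hearts reached 3151 CPM and control vector wild type hearts 3242 CPM for this gene.

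The Uqcrc2 fall depended on which tables were used. Control vector knockout hearts 35, 36 and 38 were each measured in 3 sets of tables, and their library means for Uqcrc2 were 4070, 4340 and 4547 CPM in the first set, 2984, 3305 and 3483 CPM in the second, and 2324, 2551 and 2466 CPM in the third. The control vector wild type and knockout ND6 hearts in the same tables also had their highest levels in the first set and their lowest in the third. The Ant1 vector knockout hearts, in other tables, had table means of 2039 to 2408 CPM. With the first, the second or the third set alone for the control vector hearts, the log2 change was -1.01 (adjusted p = 0.00191 in edgeR), -0.60 (adjusted p = 0.00686 in edgeR) and -0.17 (adjusted p = 0.291 in edgeR), so the call was lost with the third set.

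Sdhaf4 had 131.5, 128.1, 131.3 and 107.8 CPM in Ant1 vector knockout hearts, against 168.8, 195.5 and 173.5 CPM in control vector knockout hearts, a 0.695-fold level (adjusted p = 0.00916 in edgeR) that missed the threshold without control vector heart 36 (0.0526). Sdhd had 1316, 1242, 1285 and 1333 CPM in Ant1 vector knockout hearts, against 1538, 1678 and 1571 CPM in control vector knockout hearts (0.811-fold, adjusted p = 0.0237 in edgeR), a call lost in 5 of 14 refits (adjusted p up to 0.105). For both genes the control vector knockout hearts lay above all hearts of every other group. The share of all tested genes set apart in this way was not counted. Both genes were called through these same hearts, so this gives no independent support. Sdhaf3 had 10.92, 10.14, 9.419 and 7.573 CPM in Ant1 vector knockout hearts, against 10.92, 15.43 and 13.85 CPM in control vector knockout hearts. Those groups met at 10.92 CPM, and the change was just past the threshold (0.708-fold, adjusted p = 0.0499 in edgeR) and was lost in 8 of 14 refits (adjusted p up to 0.236). Leaving out single hearts left between 1 and 4 calls, with Uqcrc2 called each time, and without control vector heart 36 it was the 1 call left. These hearts are the same control vector knockout hearts that were high against wild type, and no table holds both vector groups, so table and vector cannot be told apart here. Of the 29 outside partners 7 fell, where 3.27% of all tested genes fell, among them Lyrm7, which escorts the Rieske protein (0.745-fold, adjusted p = 0.0067 in edgeR), Tmem70, which acts in ATP synthase assembly (0.715-fold, adjusted p = 0.00707 in edgeR), and Taco1 (0.746-fold, adjusted p = 0.00916 in edgeR).

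**Figure D4:**
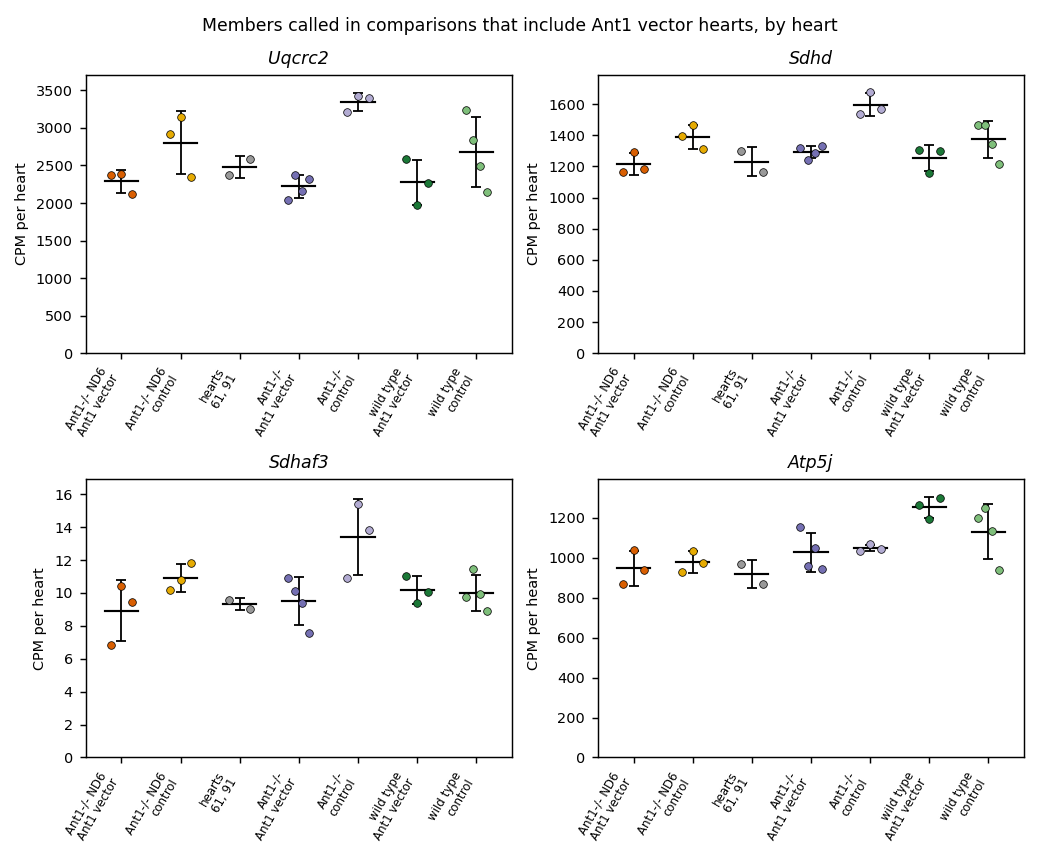
CPM of Uqcrc2, Sdhd, Sdhaf3 and Atp5j in each of the 22 hearts, by genotype and vector, with points for hearts, lines for means and SD as error bars. For Uqcrc2 the 4 Ant1 vector knockout hearts lie at 2043 to 2377 CPM, below the 3 control vector knockout hearts at 3209 to 3421 CPM, which sum libraries of all 3 table sets.

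In knockout ND6 hearts the Ant1 vector group and the control vector group had no member called between them by edgeR, where 1.75% of all tested genes rose and 0.779% fell. There, 9 members had an unadjusted p below 0.05, and DESeq2 called Sdhaf2 and Sdhaf4 lower. Sdhaf4 had 99.28, 128.9 and 128.9 CPM in Ant1 vector knockout ND6 hearts, against 161.7, 149.1 and 156.7 CPM in control vector knockout ND6 hearts, without overlap, as in 24.9% of all tested genes (log2 change -0.39, adjusted p = 0.0711 in edgeR). This group includes heart 8, which lacked the vector's transcript level. In wild type hearts no member was called by edgeR, where 0.0519% of all tested genes rose and 0.0649% fell. Of the members, 2 had an unadjusted p below 0.05, and DESeq2 called Cox6a1 lower. In those wild type hearts Cox6a1 averaged 317.7 CPM with the Ant1 vector and 391.3 CPM with the control vector.

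With the Ant1 vector in both genotypes, 3 members were higher in knockout than in wild type hearts, Cox19, Cox10 and Cox6a1, where 5.37% of all tested genes rose. None fell by edgeR, where 4.53% of all tested genes fell, 12 members had an unadjusted p below 0.05, and DESeq2 called Atp5j and Sdha lower. Cox10 had 166, 149.4, 154.9 and 171.6 CPM in Ant1 vector knockout hearts, against 134.1, 134.1 and 120.2 CPM in Ant1 vector wild type hearts (1.24-fold, adjusted p = 0.0115 in edgeR). Cox6a1 had 385, 445.6, 430.2 and 383.8 CPM in Ant1 vector knockout hearts, against 318.9, 288.8 and 345.5 CPM in Ant1 vector wild type hearts (1.29-fold, adjusted p = 0.00688 in edgeR). Neither gene overlapped between the groups, as in 10 of 51 members and 20% of all tested genes. With the table as a covariate, Cox10 and Cox6a1 missed the threshold (0.0548 and 0.102). Each of these 2 calls was lost in 2 of 13 refits, with an adjusted p up to 0.084 for Cox10 and 0.102 for Cox6a1.

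Ant1 vector knockout ND6 hearts had higher Cox19, Cox6a1 and Atp5sl and lower Atp5j than Ant1 vector wild type hearts, where 10.8% of all tested genes rose and 8.71% fell. Cox6a1 had 439.1, 421 and 433.6 CPM in those knockout ND6 hearts, above the 318.9, 288.8 and 345.5 CPM of the wild type hearts (1.36-fold, adjusted p = 0.0016 in edgeR). Atp5j, the coupling factor 6 subunit of the ATP synthase stalk, had 867.6, 1041 and 936.4 CPM in those knockout ND6 hearts, against 1262, 1193 and 1300 CPM in the wild type hearts (0.757-fold, adjusted p = 0.00686 in edgeR). Atp5sl had 69.2, 62.04 and 59.41 CPM in those knockout ND6 hearts, against 53.31, 54.04 and 50.94 CPM in the wild type hearts (1.21-fold, adjusted p = 0.0281 in edgeR). Its call was lost in 6 of 15 refits (adjusted p up to 0.126), and those of Cox6a1 and Atp5j in 1 of 15 each. The groups did not overlap in these 3 genes, as in 10 of 51 members and 34.1% of all tested genes. No table holds hearts of both groups, and with the table as a covariate, linked through other hearts, these 3 genes missed the threshold (0.12, 0.343 and 0.126) while Cox19 passed it. Without heart 5 the comparison had 8 calls. Heart 5 held 1275 CPM summed over the 4 atrial markers, against 3620 CPM or more in every other heart, and its part in these calls was not tested.

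Knockout ND6 and knockout hearts with the Ant1 vector had no member called between them by edgeR, where 1.07% of all tested genes rose and 0.584% fell. There, 9 members had an unadjusted p below 0.05, DESeq2 called Cox10 lower, and the table-covariate fit called Atp5o, Cox6a2, Cox5b, Cox7a1, Sdhc, Uqcr11 and Cox5a lower. No member passed the test, by edgeR, of whether its genotype difference changed with the vector (the interaction, Ant1 vector minus control vector). For knockout against wild type, 0.221% of all tested genes had a positive and 0.279% a negative interaction, 7 members had an unadjusted p below 0.05, and DESeq2 called none. For knockout ND6 against wild type the shares were 0.201% and 0.0714%, 1 member had an unadjusted p below 0.05, and DESeq2 called Cox6a1. The Cox19 difference between knockout and wild type changed under the Ant1 vector by a log2 value of -0.45 (95% interval -0.796 to -0.104). It was among the 7 members with an unadjusted p below 0.05 and did not pass the adjustment over all genes (adjusted p = 0.213 in edgeR).

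Within groups, the members differed in how tightly their hearts agreed. The pooled SD of log2 CPM over 15 residual degrees of freedom was lowest for Sdha (0.063), followed by Cox10 and Cox15 (0.079 each) and Uqcrc1 (0.085). It was highest for Atp5c1-ps (0.478), Cox6b2 (0.396) and Sdhaf1 (0.293), which had mean levels of 1.61, 7.94 and 20.6 CPM. Cox7a2 and Cox6a2, at mean levels of 1214 and 3997 CPM, still had SDs of 0.237 and 0.233.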

How the data were processed

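Heart RNA was made into AmpliSeq panel libraries and sequenced on an Ion Torrent S5, per the labels' protocols. The authors deposited raw counts for each amplicon, with mm10 as the genome build, per the submitters' processing notes. Aligner, counter and strand setting: not given in the sources used here. In all, 14 tables hold 112 libraries of 2893780 to 8531273 counts. Libraries that share title number, genotype and title code were summed as 1 heart, and libraries 80a and 80b, with conflicting labels, were left out. The 7 groups entered 1 edgeR 4.0.16 quasi-likelihood fit (R 4.3.3) with TMM scaling (factors 0.959 to 1.06) and filterByExpr, and p values were adjusted by Benjamini-Hochberg at 0.05. CPM use TMM-scaled totals, and log2 changes a prior count of 0.125. Intervals are 95% from the same fit. The fit was also run on simulated counts with known changes. Those counts held no differences between tables, so that run does not bear on the part of tables in the calls. Alternatives were RLE size factors, no filter, DESeq2 1.42.0, limma voom 3.58.1 on libraries with table as covariate and a within-heart correlation of 0.197, other placements of hearts 61, 91 and libraries 80a and 80b, and each heart left out. Added after seeing the data were fits without hearts 27 and 37, a fit without heart 8, fits with 1 of the 3 table sets of the control vector hearts (numbered by their barcodes), and values within shared tables (log2 CPM with 0.5 added, no test). The members and lists were chosen with earlier results of these data known. Named were members past the threshold, the isoform pairs, main catalytic subunits and up to 3 genes per list. The 3 samples of single nuclei were left out. Members overlapping another RefSeq gene numbered 19 of 53.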

Additional observations from a re-analysis of the deposited data

Results flagged for a closer look

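In the control vector wild type and Ant1 vector knockout groups, each of 4 hearts, the gap of the most extreme heart to its neighbour was set against the range of its group. Chance marks about 1 test in 20, and 6 of 102 tests over 51 members were marked. In Ant1 vector knockout hearts, heart 27 held 4 of the 6. Its Cox19 level was 75.84 CPM against 112.6 to 119 CPM in the other 3 hearts, its Sdhaf4 level 107.8 CPM against 128.1 to 131.5 CPM, its Sdhaf1 level 13.04 CPM against 21.75 to 23.09 CPM, and its Sdhc level 1878 CPM against 1470 to 1520 CPM. Heart 27 is also the heart of its group whose libraries sit in tables of their own, shared with heart 37, and the part of those tables was not tested. Heart 21 of the same group stood apart for Cox6b1, at 2646 CPM against 2302 to 2351 CPM. Wild type heart 70 stood apart for Atp5s, at 36.57 CPM against 49.21 to 51.72 CPM in the other 3 control vector wild type hearts.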

How the results depend on the processing

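No called member changed sign in any refit or within shared tables, where 11 of the 51 tested members, 10 of them subunits, did change sign in control vector knockout against wild type hearts. With the table as a covariate 7 did. Of 90 recounts of members called outside the single-heart fits, 68 stayed within 1.5 times the reported count, and of 269 refits of single called members 33 lost the threshold. Leaving out single hearts moved 11 of 348 medians over a complex by more than the spread between hearts, all in comparisons whose medians are not given here, and 8 of 87 recounts. Without the low-count filter 2 members fell with the Ant1 vector in knockout hearts. DESeq2 called 2 in knockout ND6 against knockout hearts with the control vector, 2 between vectors in knockout ND6 hearts, 1 between vectors in wild type hearts, 5 in knockout against wild type hearts with the Ant1 vector, 1 in knockout ND6 against knockout hearts with the Ant1 vector, and 1 in the knockout ND6 interaction. With the library table as a covariate the control vector counts were 7 in knockout ND6 against wild type hearts and 2 against knockout hearts, and there were 7 in knockout ND6 against knockout hearts with the Ant1 vector. That fit could not estimate the 3 comparisons between vectors.

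With hearts 61 and 91 as control vector hearts, 5 members were called in knockout ND6 against wild type hearts and 3 against knockout hearts. Without hearts 27 and 37, 5 were called in knockout and 1 in knockout ND6 hearts, against wild type and knockout hearts with the Ant1 vector in that order. Without heart 8 and with hearts 61 and 91 as Ant1 vector hearts, 7 were called in knockout ND6 against wild type hearts. With the first, the second or the third table set alone for the control vector hearts, 4, 2 and 3 members were called in knockout ND6 against wild type hearts, 1, 1 and 0 in knockout ND6 against knockout hearts, and with the third set 1 (Sdhaf4) between vectors in knockout ND6 hearts and 1 (Cox6a1) in the knockout ND6 interaction. Leaving out single hearts gave 1 to 4 calls between vectors in knockout hearts. It gave 1 to 2 in knockout ND6 against wild type hearts with the control vector (2 without wild type heart 23 or 70). With the Ant1 vector it gave 2 to 5 in knockout against wild type hearts (5 without knockout heart 20), 3 to 8 in knockout ND6 against wild type hearts, and 0 to 1 in knockout ND6 against knockout hearts (1 without heart 37). The cause of these differences was not tested. No paired analysis was possible because the groups compared share no heart number. Sdhaf3 and Cox18, near 10 CPM, had pooled log2 SDs of 0.203 and 0.246. The abundant Cox6a2 and Cox7a2 had similar SDs of 0.233 and 0.237, so small changes in any of these members could be missed.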

Other observations

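Hearts 61 and 91, whose labels and title codes disagree, held Cox10 at 145.1 and 151.9 CPM, Cox6a1 at 411.6 and 366.2 CPM, Sdhaf4 at 138.7 and 131.7 CPM and Uqcrc2 at 2374 and 2588 CPM.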
